A study of Drosophila melanogaster with 4 samples.

Results

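The windows described here cover the transition from pericentric heterochromatin to the chromosome arms in S2-DRSC cells, as marked by dimethylation of lysine 9 on histone H3 (H3K9me2). They tile the 3 Mb at the centromere end of the arms 2L, 3L, 3R and X in steps of 5 kb, which gives 600 windows on each arm and 2400 of the 33736 such windows in the 14 sequences of the series. All windows of these zones were taken, with no choice by signal. The study sequenced chromatin immunoprecipitates (ChIP) made with an H3K9me2 antibody numbered 2 in the labels. It has 2 ChIP samples and 2 inputs of sheared chromatin without immunoprecipitation. All 4 samples are untreated S2-DRSC cells, a male Drosophila melanogaster culture line derived from late embryos, and no genotype or treatment differs between them. Each ChIP sample has a list of enriched clusters, called by the authors against its own input, and the combined list is one that the authors deposited for the series as a whole.

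H3K9me2 is laid down by histone methyltransferases and is bound by heterochromatin protein 1, which compacts chromatin and can silence genes placed near it. In flies the mark fills the repeat-rich chromatin around the centromeres. The assembled arms end inside this chromatin. Each arm should thus pass from marked to unmarked sequence with growing distance from its centromere end. Distances here run from the assembled end and not from the centromere itself. How far that end lies from the centromere was not measured, so zones of equal length need not match between arms. Variegated silencing of genes moved next to such borders is the classical sign that the border can lie at different places in different cells.

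H3K9me2 clusters covered a large part of the zones of 2L, 3L and X and a small part of that of 3R, with more coverage in the zone than in the rest of the arm on all 4. On 3L, clusters held 59.8% of the zone in replicate 1 and 64.5% in replicate 2. On 2L these shares were 53.2% and 58.2%, and on X they were 45.2% and 52.7%. On 3R they were only 15.6% and 22.5%. As means ± SD (n = 2), coverage was 62.1 ± 3.33% in the 3L zone and 10.2 ± 2.35% in the rest of 3L, 55.7 ± 3.50% in the 2L zone and 11.6 ± 2.88% in the rest of 2L, 49.0 ± 5.27% in the X zone and 20.5 ± 4.35% in the rest of X, and 19.0 ± 4.90% in the 3R zone and 7.39 ± 1.82% in the rest of 3R. On each arm the lower zone value exceeded the higher value of the rest. The combined list covered 62.8% of the zone on 3L, 55.8% on 2L, 49.7% on X and 18.6% on 3R, between the replicates in every case. The zone of 3L was covered 6.23 ± 1.11 times as densely as its rest and that of 2L 4.91 ± 0.920 times. The ratios were 2.57 ± 0.0303 on 3R and 2.42 ± 0.256 on X. The similar ratios of 3R and X had different sources, since X was densely covered in both parts and 3R sparsely in both. The 2 ChIP samples are the only replicates and form 1 group, so no test across samples could be run. The labels do not say whether they came from separate cultures, and the spread between them may be technical.

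**Figure D1:**
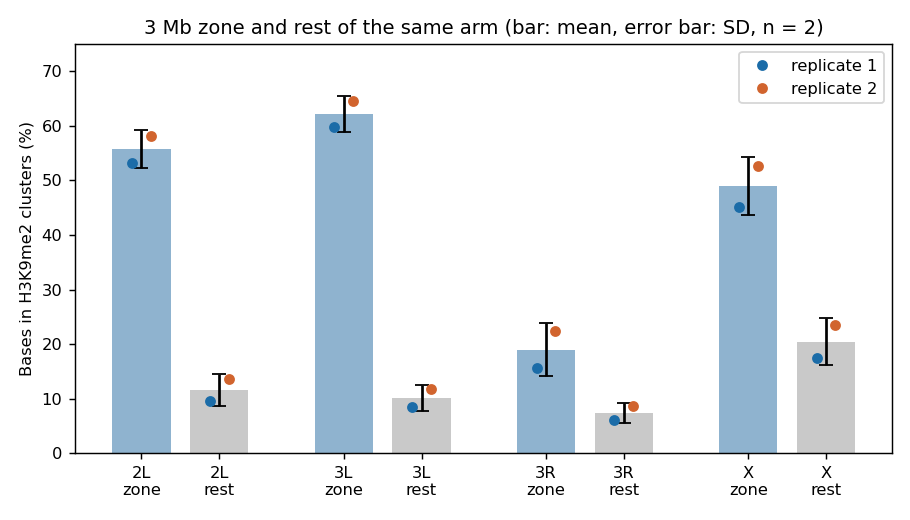
Share of bases in H3K9me2 clusters (vertical axis, %) in the 3 Mb zone and in the rest of each arm. Bars are means of the 2 ChIP samples, error bars are SD (n = 2) and points are the replicates; zone coverage was 62.1% on 3L and 19.0% on 3R, and on each arm both zone points lie above both points of the rest.

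The windows were mostly full or empty in both samples. A window is called marked here if clusters held at least 50% of it in both replicates. That was true of 1040 of the 2400 windows, or 43.3%, against 8.82% of the 17175 windows in the rest of the same arms and 14.4% of all windows of the series. Marked windows numbered 365 of 600 on 3L, 322 on 2L, 264 on X and 89 on 3R. The share of marked windows was 60.8% in the 3L zone and 7.20% in the rest of 3L, and 53.7% in the 2L zone and 8.55% in the rest of 2L. It was 44.0% in the X zone and 15.6% in the rest of X, and 14.8% in the 3R zone and 5.18% in the rest of 3R. Among all 2400 windows, 627 (26.1%) were covered from end to end in both samples and 847 (35.3%) held no cluster base in either. Full and empty windows were not counted in the rest of the arms, so these shares are not shown to be particular to the zones. On 3R, 378 windows were empty in both and 30 were full in both. On 3L these numbers were 117 and 226. The 3R count depended on the settings, with 57 windows marked at a minimum of 80% and 39 when clusters under the median score of their list were left out, which also lowered 3R zone coverage to a mean of 9.01%.

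The 2 samples differed mainly in how much replicate 2 added. On 2L 1588 kb was covered in both samples, 9.39 kb in replicate 1 alone and 158 kb in replicate 2 alone. The same 3 lengths were 1773 kb, 20.1 kb and 162 kb for 3L. They were 1321 kb, 36.1 kb and 260 kb for X, and 454 kb, 12.5 kb and 220 kb for 3R. The shared part of the bases covered in either sample was thus 90.7% on 3L, 90.5% on 2L and 81.7% on X, but 66.1% on 3R. Of the bases that replicate 2 alone held in the 4 zones, 73.9% lay in domains that also held replicate 1 bases, and the other 209 kb lay in domains of their own. Such separate domains made up 41 of the 97 replicate 2 domains on 3R, 34 of 128 on X, 22 of 120 on 3L and 17 of 96 on 2L. Over the 600 windows of an arm, the covered shares of the 2 samples had a Spearman correlation of 0.956 on 2L, 0.947 on 3L, 0.939 on X and 0.847 on 3R. Neighbouring windows share clusters and all come from the same pair of libraries, so these values only describe the maps.

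A distal border was placed on each arm at the single step that best divided the window shares, by least squares, into a level on the centromere side and a level beyond it. The arms differed in how well such a step described them. It accounted for 41.2% and 39.3% of the variance between windows on 3L in replicates 1 and 2, and for 34.2% and 32.4% on 2L. On 3R it accounted for 13.7% and 19.6%, and on X for 8.34% and 9.58%. The arms are taken in that order below.

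**Figure D2:**
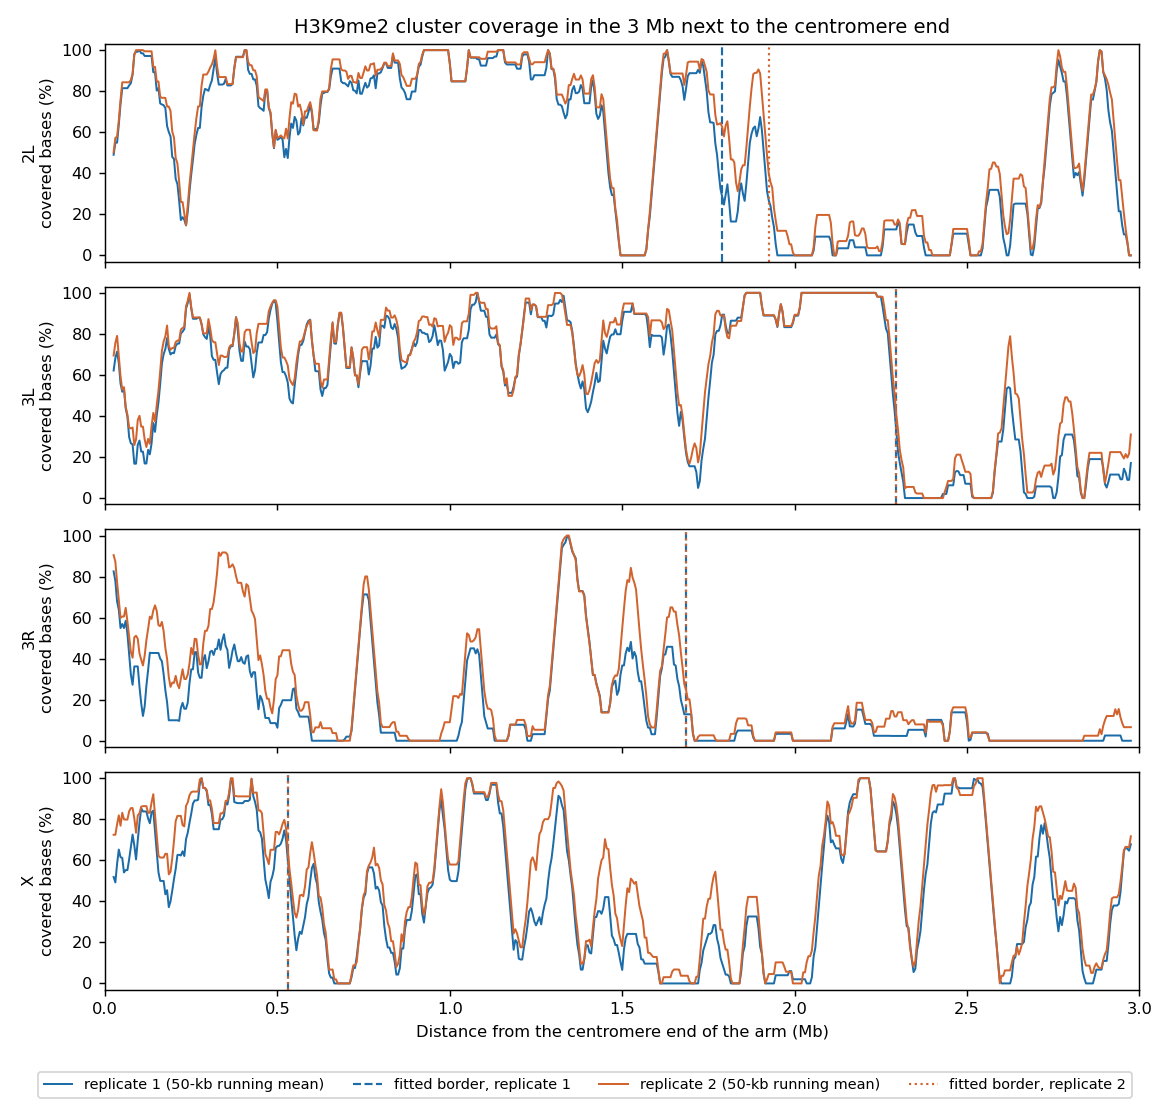
Share of bases in clusters (vertical axis, %; running mean over 10 windows) against distance from the centromere end (horizontal axis, Mb) for the 4 arms, with 1 line for each replicate and vertical lines at the fitted borders. 3L drops at 2295 kb in both replicates, while X alternates between dense and empty stretches across its whole zone.

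On 3L cluster coverage changed sharply at the fitted border, and some clusters lay beyond it. The step lay 2295 kb from the centromere end, at position 22248558, in replicate 1, replicate 2 and the combined list alike. On the centromere side 74.8% of bases were covered in replicate 1 and 78.8% in replicate 2, and beyond it 10.9% and 18.0%. In the 100 kb before the border, coverage was 90.2% and 93.4%. In the 100 kb after it, coverage was 0% and 3.51%. The last window before the border, at 22248558 to 22253557, was covered at 79.3% and 100%, and the next one outwards at 0% and 16.0%. The 2 windows inwards from the last one were partly covered, at 44.4% and 46.7% in replicate 1 and at 38.0% and 48.6% in replicate 2, and the change of level thus took up a few windows at most. Splits from 2265 to 2315 kb in replicate 1, and from 2270 to 2310 kb in replicate 2, came within 5% of the best split in variance accounted for. This range is relative to each arm's best split, so its width does not rank the arms by how well a border is placed. On X, where the step accounted for little, it was narrower still, from 520 to 545 kb and from 520 to 550 kb. Without clusters under the median score, the X border moved from 530 to 1160 kb in replicate 1 but not in replicate 2.

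The sequence just inside the 3L border held the longest domain of any zone. A domain is a run of clusters joined across at most 1 kb. The bases common to both replicates ran for 284 kb, from 22265937 to 22549878, and 99.7% of them were covered in each sample before joining. Its outer edge lay at 22265937 in replicate 1 and 22261129 in replicate 2, and its inner edge at 22549878 and 22549949. The next longest shared stretches on 3L ran from 22616859 to 22715687 (98.8 kb) and from 23435595 to 23490672 (55.1 kb). Coverage on 3L was highest next to the border and not at the centromere end. The first 100 kb of the arm was covered at 44.4% and 51.7%, while the 100-kb bins from 2000 to 2200 kb were covered completely in both samples. Inside the mean border only 9 uncovered stretches reached 10 kb, the longest of them 25.6 kb. Beyond the border the longest stretches without a cluster in either replicate ran from 21945337 to 22052657 (107 kb), from 22093645 to 22193911 (100 kb) and from 21677993 to 21736374 (58.4 kb). An isolated patch between them covered 26.7% and 40.8% of the bin from 2600 to 2700 kb. In the megabase outside the zone, coverage was 8.72% and 13.2%, close to the 8.53% and 11.9% of the rest of the arm.

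On 2L a dense inner block was interrupted by a long gap, and the lists gave different borders. The fitted step lay beyond the gap in both replicates, at different distances, and before it in the combined list. The step lay 1790 kb from the centromere end in replicate 1 (position 21221545) and 1925 kb in replicate 2 (position 21086545), a mean of 1858 ± 95.5 kb (SD, n = 2). In the combined list it lay at 1470 kb, at the inner edge of the gap. In replicate 1 the 29 splits within 5% of the best lay between 1420 and 1810 kb, a range that spans the gap, but they did not fill it. In replicate 2 the 10 such splits ran from 1895 to 1940 kb. Coverage was 74.6% and 77.0% inside the border and 21.6% and 24.4% beyond it. The gap ran from 21418032 to 21542756 and held no cluster base in either replicate over 125 kb. Whether reads could be placed in this sequence was not tested, so the gap is not shown to lack the mark. Its 50-kb flanks were covered at 72.4% and 78.6% on the centromere side and at 96.0% and 98.2% on the distal side. None of the other 11 named gaps had more than 70% coverage on both flanks in either sample. In the combined list the gap was free of clusters but for a single cluster that overlapped its edge.

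The longest shared stretches of 2L lay on the centromere side of this gap. The first, from 21989823 to 22113594, was 124 kb long and formed a single cluster in each replicate, whose edges differed by 10 bp at the outer end and 388 bp at the inner end. The second, from 22851385 to 22950485 (99.1 kb), began 61.1 kb from the centromere end. The third, from 21829525 to 21899049, measured 69.5 kb in replicate 1 but was part of a 99.4 kb domain in replicate 2. In the 100-kb bin from 900 to 1000 kb every base was covered in both samples. Coverage was low between 2000 and 2500 kb, at 5.48% and 9.44%, and this stretch held the other long gaps, from 20933467 to 21040888 (107 kb, starting just before it) and from 20534253 to 20638724 (104 kb). Farther out coverage was high again. The bins from 2700 to 2800 kb and from 2800 to 2900 kb were covered at 65.9% and 62.5% in replicate 1 and at 68.9% and 64.7% in replicate 2. This outlying block was singled out after its values were seen. It moves the border to 2978 kb when that is defined as the farthest 100 kb with a mean of at least 50%. The megabase outside the zone was covered at 22.3% and 25.5%, above the 9.57% and 13.6% of the rest of the arm.

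**Figure D3:**
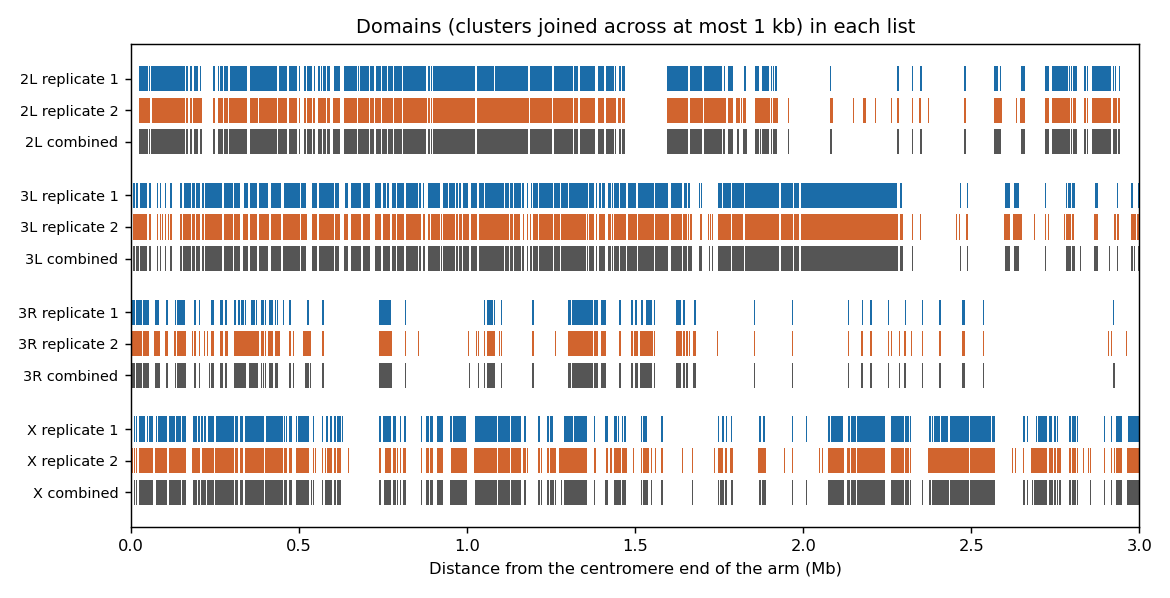
Domains (bars, clusters joined across at most 1 kb) along the 3 Mb from the centromere end (horizontal axis, Mb), with a row for replicate 1, replicate 2 and the combined list on each arm. The 125 kb gap on 2L and the 284 kb shared stretch before the 3L border appear in all 3 lists. Each list shows short, scattered domains on 3R, but 41 of the 97 in replicate 2 held no replicate 1 base.

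On 3R the clusters lay in separate patches. Its innermost 100 kb had 57.4% and 66.8% of bases in clusters, more than the same stretch of 3L, but the next 100 kb had 29.6% and 49.8%. Coverage in successive 500-kb bins from the centromere end was 35.7, 10.9, 28.5, 12.2, 5.53 and 0.645% in replicate 1 and 55.5, 16.2, 32.5, 20.1, 8.13 and 2.52% in replicate 2. The step lay at 1685 kb in both replicates and in the combined list. It divided 25.6% and 36.4% on the inner side from 2.66% and 4.72% on the outer side. In replicate 1, 13 splits between 1645 and 1715 kb came within 5% of the best. In replicate 2 only 20 splits did so, the first at 435 kb and the last at 1710 kb, and they did not fill that range. With 10-kb windows the border was 1690 kb in replicate 1 and 440 kb in replicate 2. The 8 windows beyond the step, from 1685 to 1725 kb, held no cluster base in either sample or in the combined list, and farther out both samples held only short, scattered domains.

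The patches of 3R were short. The longest shared stretch ran from 1311595 to 1373156 (61.6 kb), in a 100-kb bin covered at 83.4% and 84.5%. The second ran from 738627 to 774285 (35.7 kb) and the third from 14626 to 32652 (18.0 kb). Replicate 2 continued the third inwards almost to the assembled end, starting at base 15, whereas replicate 1 had separate domains there. Domains of at least 20 kb numbered 2 in replicate 1 and 7 in replicate 2. This count therefore rests on the choice of replicate. Replicate 2 exceeded replicate 1 most between 300 and 400 kb, with 83.0% covered against 45.8%. The outer part of the zone held the longest gap of all, 327 kb from 2536738 to 2863310, with no cluster base in either replicate. Further gaps ran from 1968402 to 2131635 (163 kb) and from 855425 to 998236 (143 kb). Stretches of at least 10 kb with no cluster in either replicate took up 69.5% of the 3R zone. In the last megabase of the zone coverage was 3.09% and 5.32%, below the 6.11% and 8.68% of the rest of the arm.

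On X dense and empty stretches alternated over the whole zone, with no border that a single step described. The fitted step lay 530 kb from the centromere end (position 21892828) in both replicates and in the combined list. It divided 72.1% and 81.7% on the inner side from 39.5% and 46.5% on the outer side, so that the outer part of the X zone was itself more densely covered than the whole zone of 3R. Coverage in successive 500-kb bins was 70.8, 36.5, 50.2, 9.88, 62.6 and 41.3% in replicate 1. In replicate 2 it was 80.8, 42.0, 61.2, 18.3, 66.7 and 47.0%. Both samples gave the same order of bins. The lowest bin, from 1500 to 2000 kb, lay between denser ones on either side. The bin from 2400 to 2500 kb, far from the centromere end, was the densest 100 kb of the zone in both samples, at 91.3% and 95.5%.

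The longest shared stretches of X also lay far out. They ran from 20180452 to 20261781 (81.3 kb, starting 2161 kb from the centromere end), from 21334339 to 21400829 (66.5 kb, starting 1022 kb away) and from 19863709 to 19928007 (64.3 kb, starting 2495 kb away). The longest gap was shorter than those of the other arms. The 3 longest ran from 21684995 to 21775977 (91.0 kb), from 20557572 to 20631631 (74.1 kb) and from 20687631 to 20752312 (64.7 kb). The first of these lay 647 to 738 kb from the centromere end, beyond the fitted step and further domains of both samples. Coverage on X thus came below the 17.4% and 23.6% of the rest of the arm between 1500 and 2000 kb, and was higher again farther out. The last 100 kb inside it was covered at 52.9% and 56.8%, and the megabase outside it at 28.2% and 37.1%, also above the rest of X.

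**Figure D4:**
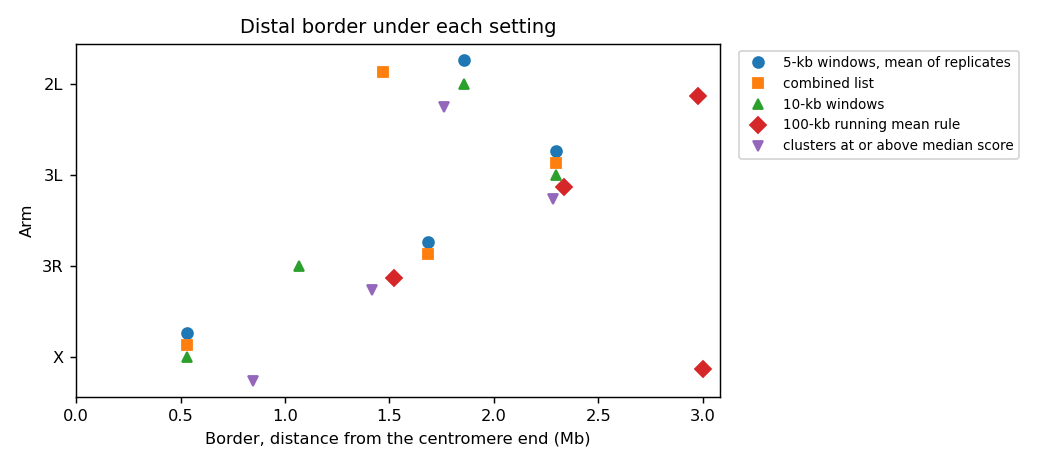
Distal border of each arm (horizontal axis, Mb from the centromere end) under 5 settings; each symbol is the mean of the 2 replicates, or the combined list for squares. The 3L symbols lie between 2283 and 2338 kb, whereas those of X lie between 530 and 3000 kb.

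Domain lengths set 3R apart from the other arms. The median domain was 9239 bp and 8314 bp on 3L for replicates 1 and 2, and 8542 bp and 9396 bp on 2L. It was shorter on X, at 5390 bp and 5428 bp, and shortest on 3R, at 4296 bp and 3106 bp. On 2L there were 27 and 24 domains of at least 20 kb, which held 69.3% and 68.7% of all domain bases. On 3L 23 and 26 such domains held 61.2% and 64.2%, and on X 19 and 23 held 58.4% and 63.3%. The few long domains of 3R held 20.5% and 39.9%. Gaps of at least 10 kb in neither replicate's clusters numbered 48 on 3R, 35 on X, 23 on 2L and 21 on 3L. They took up 32.1% of the 2L zone, 32.9% of the X zone and 21.9% of the 3L zone. The zones of 2L and X thus had nearly equal shares of long gaps, but 2L held them in fewer and longer pieces. Along the windows, marked and unmarked states alternated 43.0 times per Mb on 3L, 40.0 on X, 35.3 on 2L and 24.3 on 3R. Dense arms were therefore not unbroken, and 3L, where a step accounted for the most variance, changed state most often.

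**Figure D5:**
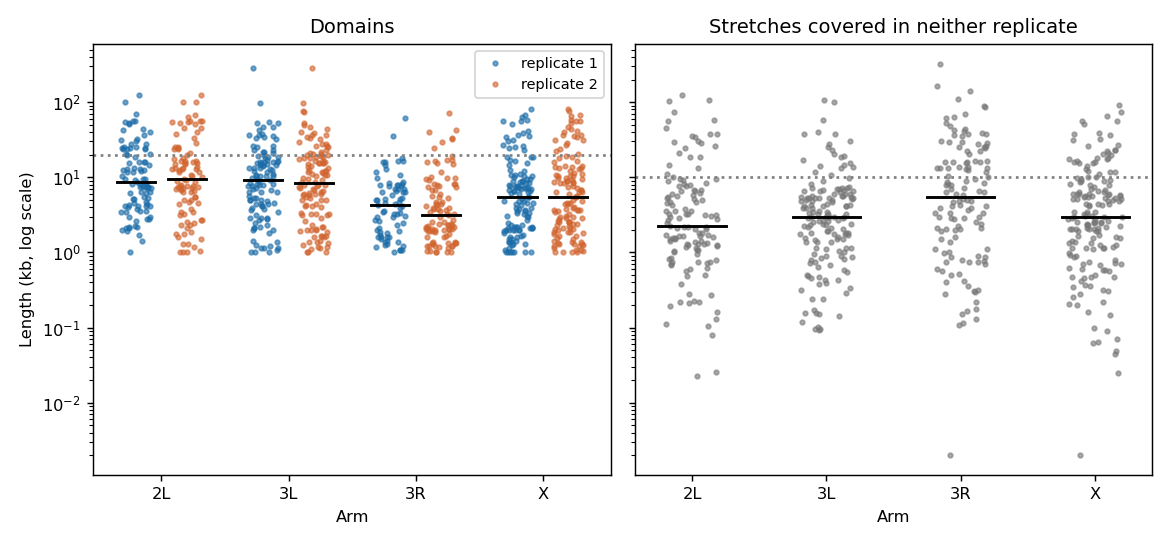
Lengths (vertical axis, kb, log scale) of domains in each replicate (left) and of stretches covered in neither replicate (right) for the 4 arms; each point is 1 domain or stretch, black lines are medians, and dotted lines mark 20 kb and 10 kb. Domains of 3R have the lowest medians, 4296 and 3106 bp, and its uncovered stretches reach 327 kb.

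Where a long domain of replicate 1 had a single match in replicate 2, most edges of the 2 samples lay within 1 kb of each other. Domains of at least 10 kb in replicate 1 that met exactly 1 replicate 2 domain, and were the only one to meet it, gave 72 edges on 3L, 56 on 2L, 43 on X and 14 on 3R. The median distance between the 2 samples' edges was 73.5 bp on 3L, 140 bp on 2L, 333 bp on X and 543 bp on 3R. Edges within 1 kb of each other made up 91.7% on 3L, 87.5% on 2L, 81.4% on X and 71.4% on 3R. Where they differed, replicate 2 usually reached farther out, at 57 of 72 edges on 3L, 46 of 56 on 2L, 36 of 43 on X and 12 of 14 on 3R. Of the replicate 1 domains of at least 10 kb, 36 of 54 were matched in this way on 3L and 28 of 43 on 2L. On X 22 of 34 were matched, and on 3R 7 of 11. Domains that replicate 2 joined or split were left out of this comparison, so the edges describe the domains on which the lists already matched.

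The authors' cluster score has no stated scale, and it was compared within a list only. In replicate 1 the median score inside the border, beyond it in the zone and in the rest of the arm was 2.08, 0.872 and 0.778 on 3L. It was 2.01, 1.07 and 0.766 on 2L, 1.44, 1.35 and 1.07 on X, and 0.900, 0.806 and 0.785 on 3R. In replicate 2 these medians were 3.05, 1.07 and 0.900 on 3L, and 2.61, 1.11 and 0.876 on 2L. For X they were 2.27, 1.39 and 1.19, and for 3R 1.01, 0.860 and 0.855. Median scores were thus highest inside the 3L and 2L borders in both lists, while the median inside the 3R border was little above that of the rest of 3R. This median covers many short clusters. In the 3 longest shared stretches of 3R, in order of length, top scores were 1.97, 2.27 and 1.89 in replicate 1. In replicate 2 they were 2.13, 2.47 and 2.73. On X the inner clusters stood clearly above the outer ones in replicate 2 and barely in replicate 1.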

How the data were processed

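H3K9me2 ChIP-seq clusters from 2 ChIP samples and a combined list were analysed as deposited. Bowtie 0.12.7 is named in the submitters' processing notes. Positions are 1-based on FlyBase release 5, per the file headers. Each input served for 1 ChIP list, per the labels. Not given in the sources used here are the caller, its threshold, the read filters and the making of the combined list. The deposited score of each cluster is the authors' own value. No read counts are given, so depth is unknown and uncovered bases are not shown to lack the mark.

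Python 3.11.15 with NumPy 2.4.6 gave the covered shares, and SciPy 1.17.1 the rank correlations. Overlapping clusters were merged and trimmed to the sequence ends. Border fits kept at least 20 windows on each side. They were tried on 50 simulated maps with a single step, where the median error was 2.5 kb and 46 fits lay within 50 kb. Maps without a single clear step, such as that of X, were not simulated. Neither were maps with a long inner gap as on 2L, or with sparse patches as on 3R. The simulated error therefore does not apply to the borders of those arms. Regions were named by a rule: the border in each list and, on each arm, the 3 longest stretches covered in both replicates and the 3 longest covered in neither. Zones, rules and lists were chosen with earlier results of these data known. Genes were not placed on these positions here. Alternatives were another window size and border rule, a score minimum, other joining distances, a stricter window threshold, the combined list and each replicate left out.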

Additional observations from a re-analysis of the deposited data

How the results depend on the processing

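Of 100 recomputed values, 79 stayed within the SD of the replicates or, for counts, within 1.5 times. The rest are given here, and the cause was not tested except where stated. With clusters at or above the median score of their list, which leaves fewer clusters, zone coverage was 50.2% on 2L, 57.8% on 3L, 39.5% on X and 9.01% on 3R. The borders then lay at 1760 kb on 2L, 2283 kb on 3L, 845 kb on X (1160 kb in replicate 1 and 530 kb in replicate 2) and 1415 kb on 3R, where 39 windows stayed marked and 22 gaps reached 10 kb. Defined by the farthest 100-kb mean of at least 50%, the borders were 2978 kb on 2L, 2338 kb on 3L, 1520 kb on 3R and 3000 kb on X, which is the outer limit of the zone. The combined list gave 1470 kb on 2L. With 10-kb windows the mean on 3R was 1065 kb, from 1690 kb in replicate 1 and 440 kb in replicate 2. At a minimum of 80%, 57 windows of 3R were marked. Domains of at least 20 kb on 3R numbered 2 without joining and 9 when joined across 5 kb, against a mean of 4.5, and 2 to 7 when a replicate was left out. On 3L, 3R and X the border SD was 0, so that any shift counts as a change. With 2 replicates, leaving out either keeps a mean within 1 SD by construction. No paired analysis was possible because only the ChIP samples carry clusters and the inputs enter through those calls.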
